A study of Mus musculus with 8 samples.

Results

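The insulin-like growth factor (IGF) family was followed through the tibialis anterior (TA) muscle, a fast-twitch muscle of the lower leg, of old mice with and without *Mybpc2*, the gene of fast myosin binding protein-C. The members were chosen by gene symbol, with earlier results of these data known. They comprised 2 ligands (*Igf1*, *Igf2*), 2 receptors (*Igf1r*, *Igf2r*) and 6 binding proteins (*Igfbp2* to *Igfbp7*), which makes 10 of the 16686 genes with counts in the deposited table. Bulk RNA came from 4 wild-type mice (WTOld) and 4 mice lacking *Mybpc2* (C2-/-Old), with 1 library per mouse. All 8 were males on the FVBN background with a labelled age of 22 months. In the C2-/-Old mice, a Neo cassette flanked by LoxP sites takes the place of exons 2 to 22 of *Mybpc2*, so the gene is missing from every cell of the animal and not only from muscle fibres. The cassette is present in this group alone, and its own part cannot be told apart from the loss of the gene.

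The IGFs are small secreted proteins related to insulin. IGF1 acts through the IGF1 receptor, a tyrosine kinase upstream of PI3K, Akt and mTOR, and is known in skeletal muscle for driving fibre growth and repair, while the IGF2 receptor clears IGF2 from the cell surface and sorts lysosomal enzymes. The binding proteins hold IGFs in the circulation and in tissue, and according to the protein and its cleavage they withhold the ligand from the receptor or deliver it. In muscle, IGF family transcripts come from fibres and also from fibroblasts, vessel cells and macrophages.

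The 8 libraries held between 25425993 and 29747692 counts, and a level of 3 counts corresponded to between 0.104 and 0.116 CPM (counts scaled to a common library size with TMM factors), a limit that covers counting error only. *Mybpc2* was at 4964 to 7392 CPM in WTOld and at 3.85 to 38.3 CPM in C2-/-Old, the highest of these being replicate 3. The fast fibre markers *Myh4*, *Myh1*, *Tnni2*, *Tnnt3*, *Mylpf*, *Atp2a1*, *Pvalb* and *Actn3* summed to 133492 to 191532 CPM in WTOld and 139466 to 164995 CPM in C2-/-Old, and those of slow fibres to 44.1 to 80.9 and 43.7 to 58.8 CPM. Of the 6 slow fibre markers, 2 had a higher and 4 a lower mean in C2-/-Old, and 2 of the lower ones (*Myh7* and *Myl2*) had an unadjusted p under 0.05 by edgeR. At this p, 1.91% of all tested genes were lower and 3.38% higher. *Myh7* reached 20.9 CPM in WTOld replicate 4 alone, against 0.365 to 2.62 CPM in the other wild-type mice and 0.446 to 1.85 CPM in C2-/-Old. *Myl2* was low, at 1.34 to 4.13 CPM in WTOld and 0.372 to 0.971 CPM in C2-/-Old. WTOld replicate 2 stood apart from the other libraries, being the highest or the lowest of the 8 mice for 52.0% of the 12542 tested genes, against 14.4% to 25.6% for each other mouse. Among the 9 tested members it held an extreme for 4, as WTOld replicate 4 did. In bulk RNA, a change in the number of cells of a type and a change in RNA per cell cannot be told apart.

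The question put to the family was whether the loss of fast myosin binding protein-C in aged fast muscle goes along with a change in growth factor RNA. *Igf1* was 1.86-fold higher and *Igfbp3* was 0.44 of the wild-type level in C2-/-Old, and both differences had an unadjusted p under 0.05 but not an adjusted one. *Igfbp4* was 1.21-fold higher with an unadjusted p just under 0.05. *Igf2*, both receptors and *Igfbp5*, *Igfbp6* and *Igfbp7* differed by less than 2 standard errors (SE). Of the 10 members, 9 passed edgeR's filter on low counts, and *Igfbp2* did not. A fold above 1.5 with an adjusted p under 0.05 (quasi-likelihood F test of edgeR, corrected by Benjamini-Hochberg over all tested genes) was reached by 0 of the 9 (1 with DESeq2), where 0.0319% of all tested genes passed this rule. At an unadjusted p under 0.05, 3 of the 9 passed, 2 higher and 1 lower, against 5.29% of all tested genes. For 2 of the 9, the 2 genotypes had no range of TMM-scaled CPM in common, against 3.38% of all tested genes. *Igf1* was the one with all C2-/-Old mice higher, against 2.03% of all tested genes, and *Igfbp3* the one with all lower, against 1.36%. The separation of *Igfbp3* was not kept on CPM of the total library size or on the deposited TPM. The median log2 fold change of the 9 was 0.11 and that of all tested genes was −0.02. The members, like the marker and pathway lists below, were chosen with earlier results of these data known. The shares of all tested genes given beside them are therefore a description and not a test.

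**Figure D1:**
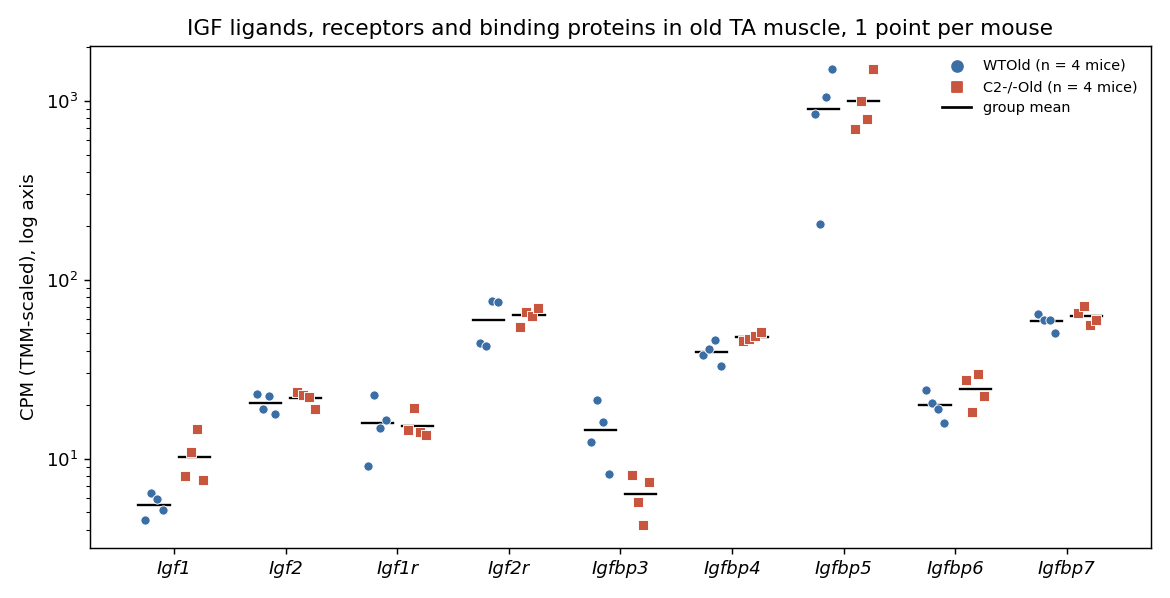
CPM of the 9 tested members on a log axis, with 1 point per mouse (circles, WTOld; squares, C2-/-Old; 4 mice each) and a line at the group mean. *Igf1* squares lie above all its circles, and *Igfbp5* spreads widest among the wild-type mice. *Igfbp3* squares lie below all its circles by a narrow margin, which holds on TMM-scaled CPM only.

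*Igf1* (gene ID 16000, the main ligand of the IGF1 receptor in adult tissue) is listed in the table on chromosome 10 from 87826378 to 87937047 (GRCm38.p6, plus strand), a longer interval than that of RefSeq, which starts at 87858265. Its expression in WTOld was 4.55, 6.42, 5.97 and 5.14 CPM for replicates 1, 2, 3 and 4. The C2-/-Old mice had 7.99, 10.9, 14.6 and 7.59 CPM in the same order. Every C2-/-Old mouse had more *Igf1* RNA than every WTOld mouse, with replicate 3 the highest. The libraries held 118 to 176 *Igf1* counts in WTOld and 211 to 411 in C2-/-Old. On the log2 scale the fold change was 0.89 (SE 0.22, unadjusted p = 0.00234 and adjusted p = 0.571 by edgeR). The two-sided exact permutation test gave p = 0.0286, the smallest that 4 mice against 4 allow. With each mouse left out in turn, the log2 fold change stayed between 0.67 and 1.01, with the lowest value without C2-/-Old replicate 3 and 0.98 without WTOld replicate 2.

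*Igf2* (gene ID 16002, an imprinted fetal growth factor that is also expressed during muscle differentiation) lies on chromosome 7 from 142650768 to 142666816 on the minus strand. Its expression was 23.0, 18.9, 22.4 and 17.8 CPM in WTOld and 23.6, 22.7, 22.2 and 19.0 CPM in C2-/-Old. The genotypes overlapped, and the 8 mice lay within a narrow range. The fold change (log2) came to 0.09 (SE 0.13, edgeR adjusted p = 0.981). Exons of *Igf2* overlap those of *Gm49394* on the same strand and those of the antisense gene *Igf2os* in GENCODE M21, and since the counting is not stated to use the strand, reads from *Igf2os* cannot be told apart and those shared with *Gm49394* are uncertain. Per transcript length, on the scale of the deposited TPM, *Igf2* was 7.85 to 13.1 times as abundant as *Igf1* in WTOld and 3.51 to 7.83 times in C2-/-Old.

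*Igfbp3* (gene ID 16009, the major IGF carrier of the blood, made in tissue mostly by vessel and stromal cells) lies on chromosome 11 from 7206086 to 7214081 on the minus strand. Its expression in WTOld was 12.4, 21.1, 16.1 and 8.14 CPM for replicates 1 to 4. The C2-/-Old mice had 8.10, 5.69, 4.26 and 7.35 CPM. On TMM-scaled CPM each C2-/-Old mouse was below each WTOld mouse, but WTOld replicate 4 and C2-/-Old replicate 1 were nearly level. On CPM of the total library size the latter was above the former. The same held on the deposited TPM scale, with 6.03 against 6.01 TPM. The log2 fold change of *Igfbp3* was −1.18 (SE 0.29, unadjusted p = 0.00217 and adjusted p = 0.571 by edgeR). The two-sided exact permutation p was 0.0286 on TMM-scaled CPM and 0.0571 on CPM of the total library size, an alternative added after the values had been seen. DESeq2's Wald test gave *Igfbp3* an adjusted p of 0.0354, the only adjusted p under 0.05 for a member among the 14 alternatives to the main fit, in a test that called 0.303% of all genes tested. With each mouse left out in turn, the log2 fold change ranged from −1.37 without WTOld replicate 4 to −0.94 without WTOld replicate 2, the mouse with the most *Igfbp3*.

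*Igf1* had a higher and *Igfbp3* a lower mean in C2-/-Old. Per transcript length, the ratio of *Igf1* to *Igfbp3* RNA lay between 0.103 and 0.213 in WTOld and between 0.333 and 1.16 in C2-/-Old. The highest ratio belonged to C2-/-Old replicate 3, which had both the most *Igf1* and the least *Igfbp3* of all 8 mice. The ratio is given as a description, since both genes entered it with their differences known.

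The bases just upstream of a start that RefSeq lists are shown for each of these 2 genes. Both are members whose TMM-scaled CPM did not overlap between the genotypes. The RefSeq intervals of both genes reach further upstream, which these windows do not cover. Which start the muscle used was not tested. Each sequence is the 250 bases before the start on GRCm38.p6, 5′ to 3′ on the gene's own strand, for *Igf1* chr10:87860861-87861110 (plus strand, inside the gene's interval, since *Igf1* has more than one start) and for *Igfbp3* chr11:7213924-7214173 (minus strand, likewise inside the gene's RefSeq interval, which ends at 7215498). Capitals mark matches to an E-box (CANNTG, the letters bound by bHLH factors such as MyoD), to CCAAT on either strand or to a TATA-like run (TATANA on either strand).
Igf1: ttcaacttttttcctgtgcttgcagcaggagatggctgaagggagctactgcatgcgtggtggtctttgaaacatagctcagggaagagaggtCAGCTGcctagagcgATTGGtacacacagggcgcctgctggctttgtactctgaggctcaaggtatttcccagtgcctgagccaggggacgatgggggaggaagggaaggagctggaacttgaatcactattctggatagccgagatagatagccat
Igfbp3: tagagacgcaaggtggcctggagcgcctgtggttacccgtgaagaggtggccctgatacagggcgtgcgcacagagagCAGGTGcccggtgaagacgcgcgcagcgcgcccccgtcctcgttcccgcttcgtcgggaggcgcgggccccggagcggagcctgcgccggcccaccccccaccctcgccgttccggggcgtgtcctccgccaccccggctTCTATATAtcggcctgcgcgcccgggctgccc

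The window of *Igf1* holds 52.8% G and C with 5 CpG, close to the median of 52.4% and 6 CpG over the 32851 windows of this length in the table. The window of *Igfbp3* is far richer, with 73.2% G and C and 32 CpG, and ends in a TATA-like run near the start. All 10 members had at least 1 window, 14 in all, since *Igf2* has 4 and *Igfbp2* has 2. An E-box was found in 9 of the 14 windows, against 66.2% of all windows, CCAAT in 3 against 33.8%, and a TATA-like run in 3 against 22.6%. GTAAACA, the letters bound by FoxO factors, was found in 0 of the 14 (3.17% of all windows), and TTCNNNGAA, the letters bound by STAT5, in 0 of the 14 (7.02% of all windows), both searched on either strand. These are matches of letters and not binding sites.

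**Figure D2:**
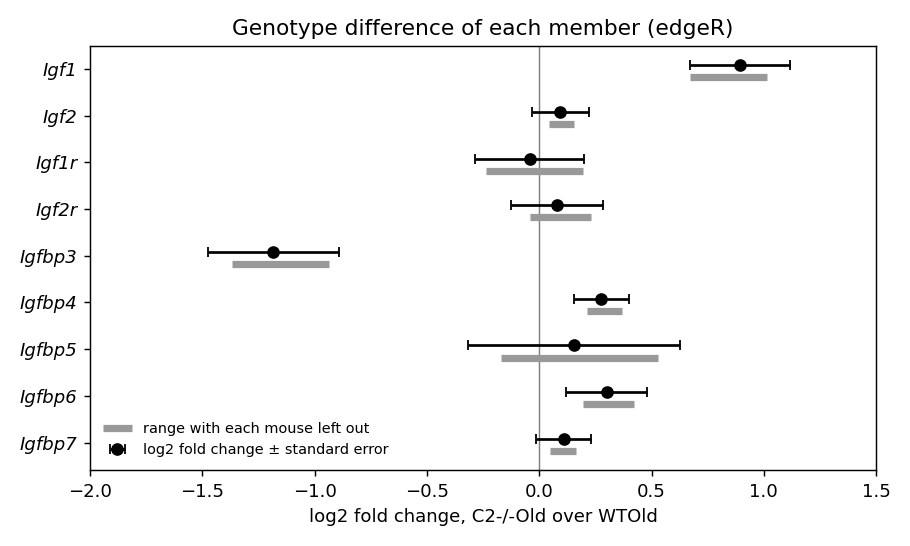
The log2 fold change of C2-/-Old over WTOld with its SE for the 9 tested members (points and bars), and below each the range when 1 mouse at a time was left out (grey). *Igf1* stays above 0 and *Igfbp3* below 0 in all of these fits, while the ranges of *Igf1r*, *Igf2r* and *Igfbp5* cross 0.

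*Igf1r* (gene ID 16001, the signalling receptor for IGF1) lies on chromosome 7 from 67951833 to 68233668 on the plus strand. Its expression was 9.02, 22.7, 14.8 and 16.4 CPM in WTOld and 14.3, 19.2, 14.1 and 13.5 CPM in C2-/-Old. The wild-type mice held both the lowest and the highest value, in replicates 1 and 2, and the knockout mice lay between them. Between genotypes the log2 fold change came to −0.043 (SE 0.24, edgeR adjusted p = 0.997), and it was 0.19 without WTOld replicate 2 and −0.23 without WTOld replicate 1. *Igf1r* and *Igf2* share chromosome 7 with *Mybpc2*, at distances of 23.4 and 98.1 Mb.

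*Igf2r* (gene ID 16004, the clearance receptor for IGF2) lies on chromosome 17 from 12682406 to 12769981. The table gives its strand as plus, whereas RefSeq places the promoter on the minus strand. Its expression was 44.2, 42.7, 76.4 and 75.1 CPM in WTOld, a pair of low and a pair of high mice. In C2-/-Old it was 54.4, 65.6, 62.6 and 69.4 CPM, all between those pairs. On the log2 scale the fold change was 0.08 (SE 0.21, edgeR adjusted p = 0.989).

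*Igfbp5* (gene ID 16011, a binding protein of muscle and bone that attaches to extracellular matrix) had the highest mean of the members per transcript length in both genotypes, at 279 ± 168 TPM in WTOld and 323 ± 127 TPM in C2-/-Old (SD, n = 4 mice each). In WTOld replicate 2, however, *Igfbp7* was higher, with 91.8 TPM against 57.1 TPM of *Igfbp5*, and the WTOld ranges of both genes overlapped. The gene lies on chromosome 1 from 72858065 to 72874865, next to *Igfbp2*. Its expression was 846, 203, 1042 and 1496 CPM in WTOld, and the value of replicate 2 was the lowest of all 8 mice. In C2-/-Old it was 691, 999, 793 and 1509 CPM. The spread of *Igfbp5* within WTOld, 7.36-fold from the lowest to the highest mouse, was the widest of the tested members, and it was 2.18-fold within C2-/-Old. On the log2 scale the fold change was 0.15 (SE 0.47, edgeR adjusted p = 0.989). Its sign depended on single mice, since it was −0.17 without WTOld replicate 2 and −0.12 without C2-/-Old replicate 4.

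*Igfbp4* (gene ID 16010, which mostly withholds IGFs until the protease pappalysin cleaves it) lies on chromosome 11 from 99041260 to 99052646. Expression amounted to 38.0, 40.8, 46.2 and 32.9 CPM in WTOld and 45.6, 46.5, 48.3 and 51.0 CPM in C2-/-Old. Only WTOld replicate 3 reached into the range of the knockout mice, which lay within 1.12-fold of each other. On the log2 scale the fold change was 0.28 (SE 0.12, unadjusted p = 0.0471 and adjusted p = 0.927 by edgeR). Its unadjusted p ranged from 0.0135 to 0.114 over the alternatives (edgeR, limma-voom and DESeq2), and the two-sided exact permutation p was 0.0571.

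*Igfbp6* (gene ID 16012), which prefers IGF2, was at 24.3, 20.3, 18.9 and 15.9 CPM in WTOld and at 27.6, 18.2, 29.6 and 22.5 CPM in C2-/-Old. *Igfbp7* (gene ID 29817), a vessel-associated relative that binds IGFs weakly, was at 64.5, 59.3, 59.5 and 50.02 CPM in WTOld and at 65.0, 71.5, 55.4 and 59.8 CPM in C2-/-Old. In both genes the genotypes overlapped widely. Their log2 fold changes were 0.30 (SE 0.18) and 0.11 (SE 0.12), with adjusted p = 0.968 and 0.972 from the edgeR test. *Igfbp6* lies on chromosome 15 from 102144186 to 102149512 and *Igfbp7* on chromosome 5 from 77349240 to 77408045, where its exons overlap those of *Polr2b* on the opposite strand in GENCODE M21.

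*Igfbp2* (gene ID 16008, a carrier that is abundant in fetal tissue and liver) lies on chromosome 1 from 72824480 to 72852474 and was close to the limit of detection. It had 7, 54, 1 and 0 counts in WTOld replicates 1 to 4 and 2, 2, 4 and 1 counts in C2-/-Old. The 54 counts of WTOld replicate 2 correspond to 1.97 CPM, and in the other wild-type mice the level was at most 0.27 CPM. The 0 counts of WTOld replicate 4 allow a level of up to 0.109 CPM. With counts at or under 3 in 5 of the 8 mice, no fold is given.

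**Figure D3:**
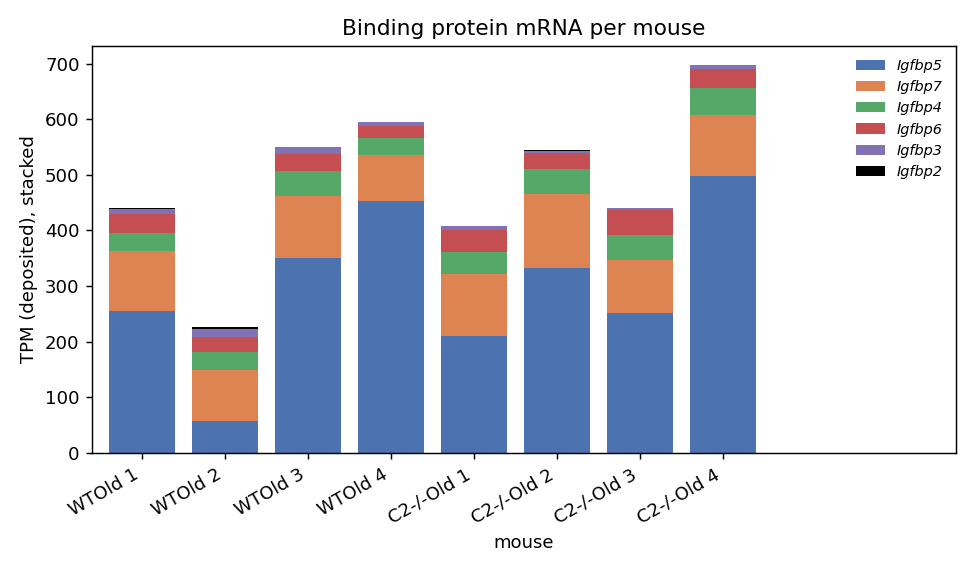
Stacked TPM of the 6 binding protein genes in each of the 8 mice, as deposited by the authors. *Igfbp5* makes up 25.2% of the stack in WTOld replicate 2 and 51.8% to 76.1% in the other mice, and *Igfbp3* makes up a thin layer in every mouse.

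Read per transcript length, the order of the members was much the same in both genotypes. *Igfbp5* and *Igfbp7* led, followed by *Igfbp4* and *Igfbp6*, then *Igf2* and *Igf2r*, with the lowest levels in *Igf1r*, *Igf1* and *Igfbp2*. In WTOld, *Igfbp7* (98.6 ± 12.7 TPM) lay above *Igfbp4* (35.1 ± 6.98 TPM) in every mouse, whereas the ranges of *Igfbp4* and *Igfbp6* (28.8 ± 4.99 TPM) overlapped. The ranges of *Igf2* (13.0 ± 1.73 TPM), *Igf2r* (12.0 ± 4.43 TPM) and *Igfbp3* (10.7 ± 3.85 TPM) also overlapped with one another (SD, n = 4 mice each). They reached neither the range of *Igfbp6* above nor that of *Igf1r* below. In C2-/-Old, *Igfbp3* was at 4.96 ± 1.29 TPM and its range no longer reached that of *Igf2r* (13.3 ± 1.83 TPM), while *Igf1* (2.73 ± 0.86 TPM) overlapped with both *Igfbp3* and *Igf1r* (2.51 ± 0.52 TPM). The 6 binding proteins together amounted to 226 to 594 TPM in WTOld and 408 to 697 TPM in C2-/-Old, and without *Igfbp5* to 142 to 200 and 189 to 211 TPM, so that the genotypes overlapped in both sums.

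Markers of other cell types were measured in the same libraries. All 8 fibroblast markers (*Pdgfra*, *Dcn*, *Lum*, *Col1a1*, *Col1a2*, *Col3a1*, *Dpt* and *Pi16*) had a higher mean in C2-/-Old, and 5 of them had an edgeR p under 0.05 before correction. Of all tested genes, 3.38% were higher at this p. The fibroblast markers summed to 320 to 526 CPM in WTOld and 580 to 806 CPM in C2-/-Old, without overlap. The 6 mural cell markers summed to 229 to 366 and 345 to 416 CPM, the 8 tendon markers to 59.5 to 195 and 99.0 to 273 CPM, and the 6 macrophage markers to 21.1 to 48.8 and 35.7 to 60.2 CPM. All 6 mural cell and all 6 macrophage markers likewise had a higher mean in C2-/-Old, as did 6 of the 7 tested tendon markers. At an unadjusted p under 0.05 by edgeR there were 1 mural cell, 1 tendon and 0 macrophage markers. The 7 endothelial markers, of which 3 were higher and 4 lower in mean in C2-/-Old, summed to 241 to 332 and 238 to 305 CPM, and the genotypes overlapped. Satellite cell markers summed to 24.0 to 32.9 and 26.9 to 33.9 CPM. Of all these markers, *Kera* and *Calcr* were at 0 in at least 1 library. The part that these cell types had in the differences of *Igf1*, *Igfbp3* and *Igfbp4* was not tested. Immediate early genes (*Fos*, *Fosb*, *Egr1*, *Junb*, *Ier2* and *Atf3*) summed to 51.4 to 1227 CPM in WTOld and 34.9 to 762 CPM in C2-/-Old. The sums were 543 and 1227 CPM in WTOld replicates 2 and 4 and 762 CPM in C2-/-Old replicate 2, against 34.9 to 83.1 CPM in the other mice. All 6 had a lower mean in C2-/-Old, and 0 had an unadjusted p under 0.05 by edgeR.

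Other genes of the IGF pathway were taken from a list of 49, from the growth hormone receptor to mTOR and FoxO. The table held 47 of them, 42 were tested, and an adjusted p under 0.05 from the edgeR test was reached by 0, and likewise by 0 with limma-voom and DESeq2 beyond a fold of 1.5. At an unadjusted p under 0.05 there were 2 of the 42, near the 5.29% of all tested genes. Both were lower, where 1.91% of all tested genes were lower and 3.38% higher at this p. Of the 42, 13 had a higher and 29 a lower mean in the knockout group, where 5738 of all 12542 tested genes were higher and 6804 lower. The median of the log2 fold changes of the 42 was −0.08 (all tested genes, −0.02). Neither *Igfbp1* nor *Igfbpl1* was among the 47 that the table held, so neither was analysed here.

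The 2 genes were *Stc1* and *Grb10*. *Stc1*, which encodes a stanniocalcin that blocks the pappalysin protease, was at 1.23, 3.54, 1.83 and 1.013 CPM in WTOld and 0.189, 1.004, 0.78 and 0.659 CPM in C2-/-Old. The lowest wild-type and the highest knockout mouse were nearly level. C2-/-Old replicate 1 was near the level of 3 counts, which is 0.114 CPM in its library. *Stc1* did not pass the filter of 10 counts in every mouse. The fold change (log2) came to −1.52 (SE 0.51, unadjusted p = 0.0138 and adjusted p = 0.778 by edgeR). Without WTOld replicate 2, the mouse with the most *Stc1*, it was −1.03 (SE 0.47, unadjusted p = 0.051 and adjusted p = 0.845 by edgeR). *Grb10*, an imprinted adaptor that restrains insulin and IGF1 receptor signalling, was at 20.0, 16.7, 18.4 and 19.4 CPM in WTOld and 13.1, 10.1, 12.0 and 18.7 CPM in C2-/-Old, of which the last lay within the wild-type range. The fold change (log2) came to −0.47 (SE 0.18, unadjusted p = 0.0251 and adjusted p = 0.878 by edgeR).

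Upstream of *Igf1*, for the growth hormone receptor gene *Ghr* the log2 fold change amounted to −0.14 (SE 0.17), and *Socs2*, a target and inhibitor of growth hormone signalling, one of −0.34 (SE 0.53). *Ghr* was lowest in WTOld replicate 2, at 102 CPM against 140.2 to 186 CPM in the other mice. Without that mouse its log2 fold change was −0.29 (SE 0.09, unadjusted p = 0.00819 and adjusted p = 0.58 by edgeR). In that fit, 746 of 12672 tested genes had an unadjusted p under 0.05. Other named pathway genes also fell under 0.05 with a mouse left out, such as *Irs1* without C2-/-Old replicate 2 (log2 fold change 0.52, unadjusted p = 0.0136 and adjusted p = 0.918 by edgeR). *Socs2* was at 54.7 CPM in WTOld replicate 2 and between 7.92 and 29.6 CPM in the other mice. Among the genes that handle binding proteins, the protease *Pappa* was at or below 0.347 CPM in every mouse and was not tested. *Htra1*, a serine protease of the matrix, and *Stc2* had log2 fold changes of −0.53 (SE 0.34) and −0.63 (SE 0.57), both with their highest value in WTOld replicate 2. Without that mouse, *Htra1* was at −0.11 and *Stc2* at 0.34 on the same scale. *Igfals*, the third partner of the circulating IGF complex, and *Igf2bp2*, which binds *Igf2* RNA, were low in muscle, at 0.859 to 2.22 and 0.253 to 1.10 CPM, with log2 fold changes of 0.42 (SE 0.34) and 0.72 (SE 0.43).

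Downstream of the receptors, the log2 fold change was −0.07 for *Insr* (SE 0.14), 0.31 for the adaptor *Irs1* (SE 0.25) and −0.52 for *Irs2* (SE 0.43). For the translation repressor *Eif4ebp1*, the FoxO factor *Foxo1* and the kinase *Akt1*, it was −1.03 (SE 0.59), −0.62 (SE 0.35) and −0.37 (SE 0.24). The last 3 genes were highest in WTOld replicate 2, where *Eif4ebp1* reached 517 CPM against 61.0 to 105 CPM in the other mice. Without that mouse their log2 fold changes were 0.22 for *Eif4ebp1*, −0.094 for *Foxo1* and −0.070 for *Akt1*, and that of *Socs2* was 0.50. Over the pathway list, WTOld replicate 2 was the highest or lowest mouse for 24 of the 42 tested genes, which is 57.1% and close to its share of all tested genes. The adjusted p of each of these genes was above 0.05 in the edgeR test.

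**Figure D4:**
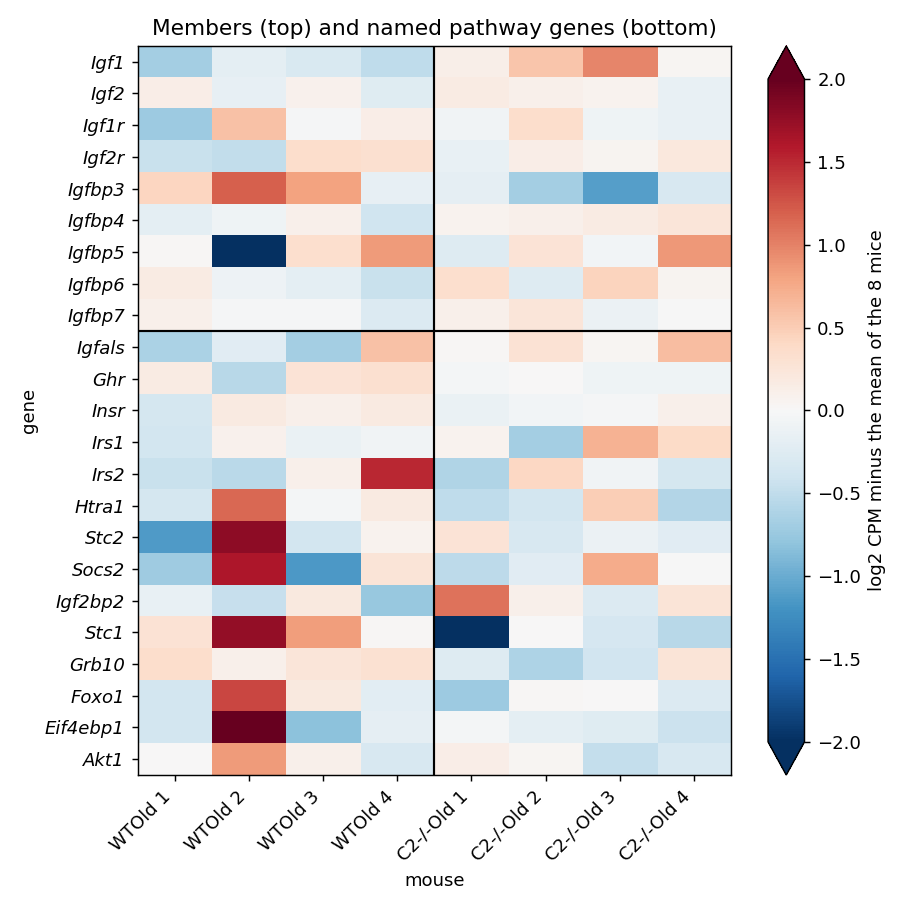
log2 CPM of the 9 tested members (top) and of the 14 tested and named pathway genes (bottom) in each of the 8 mice, relative to the mean of the 8 mice (red, higher; blue, lower; colours saturate at 2 log2 units). *Igf1* is blue in all WTOld and red in all C2-/-Old mice, *Igfbp3* is red in WTOld replicates 1 to 3 and blue in the other mice, and WTOld replicate 2 carries the strongest colours of *Igfbp5*, *Stc2*, *Socs2*, *Foxo1* and *Eif4ebp1*.

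The genes whose pattern over the 8 mice was most like that of a member, after the mean of each genotype was subtracted, were *Pnpla8*, *Cyb561* and *Nfil3* for *Igf1* (Pearson r of 0.982, 0.981 and 0.968). For *Igfbp3* they were *Fyn*, *Trim47* and *Klhl15* (0.963, 0.961 and 0.952), for *Igfbp4* *Slc52a2*, *Adgre1* and *Ugt1a6a* (0.960, 0.952 and 0.942) and for *Igfbp5* *Dnmt1*, *Prkag3* and *Nek4* (0.990, 0.990 and 0.988). For *Igf2* they were *Npcd*, *Thap4* and *Magee1* (0.989, 0.966 and 0.966), for *Igf1r* *Phka2*, *Cbll1* and *Setd2* (0.985, 0.984 and 0.981) and for *Igf2r* *Kdm5a*, *Slk* and *Kat6a* (0.996, 0.993 and 0.993). *Igfbp6* was most like *Thoc6*, *Vegfa* and *Nme1* (0.982, 0.982 and 0.980) and *Igfbp7* most like *Prr5l*, *Tmem219* and *Esam* (0.994, 0.960 and 0.956). With 8 mice such values are common, since the median over all tested genes of the highest r with any other gene was 0.984, and the points share their libraries and their scaling.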

How the data were processed

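Total RNA of the TA muscle of 8 mice was enriched for polyadenylated RNA and sequenced on DNA nanoballs. The authors removed low-quality reads, aligned the rest to GRCm38.p6 with HISAT and counted them per gene, for which the study's methods name featureCounts. The submitters' processing notes also name Bowtie2 and DESeq2. The deposited table holds expected counts per gene that were not normalized, of which 5.5% to 6.53% of the values per mouse are not whole, and TPM computed by the authors, which were used untested, for levels, ratios and sums of genes per transcript length. Also in the table, and not used, are 8 columns of FPKM (1 per mouse), averages per genotype, and the authors' log2 fold changes with p-values and q-values. The growth protocol in the labels names an age of 2 months, which differs from the labelled 22 months.

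Of 16687 rows, 16686 were usable, and 25 symbols that were duplicated or turned into dates were restored from gene IDs. Counts were rounded and tested with edgeR 4.0.16 in R 4.3.3 (TMM, default filter on low counts, quasi-likelihood test, Benjamini-Hochberg adjustment over 12542 genes). Standard errors come from the fold change and the root of F. log2 CPM used a prior count of 2. Alternatives were RLE factors, limma-voom (limma 3.58.1), DESeq2 1.42.0, a filter of 1 count in total or of 10 counts in every mouse, a block for the replicate number, and fits without each mouse in turn. The edgeR, limma-voom and DESeq2 fits were tested on simulated data. The pathway genes named are a fixed set plus the 5 others with the smallest p. The members and lists were chosen with earlier results of these data known. Exon overlaps come from GENCODE M21 and upstream sequences from RefSeq. Libraries are separate mice, so p-values set the genotype difference against the spread between animals.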

Additional observations from a re-analysis of the deposited data

Results flagged for a closer look

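In groups of 4 mice, a value was singled out when its gap to the nearest other mouse took up a larger part of the range of the group than Dixon's critical value for 4, which chance does in about 1 group in 20. Of 48 groups examined (members and named pathway genes in each genotype), 4 were singled out. *Igf1r* in C2-/-Old replicate 2 was at 19.2 CPM, above the other 3 knockout mice but within the wild-type range. *Igfbp2* in WTOld replicate 2 was at 1.97 CPM, from 54 counts, while the other wild-type mice had 7, 1 and 0 counts. *Htra1* in C2-/-Old replicate 3 was at 62.1 CPM. *Eif4ebp1* in WTOld replicate 2 was at 517 CPM. What sets these mice apart was not tested.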

How the results depend on the processing

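The direction of *Igf1*, *Igf2*, *Igfbp3*, *Igfbp4*, *Igfbp6* and *Igfbp7* was the same in each of the 14 alternatives. The number of members called was 0 with edgeR and limma-voom and 1 (*Igfbp3*) with DESeq2, and leaving out each mouse kept it at 0. The number with an unadjusted p under 0.05 ranged from 2 to 3 with each mouse left out. It was 4 of 10 with the filter of 1 count in total, which let in *Igfbp2*. For the other pathway genes that number was 2 in the main fit and ranged from 1 to 3 with each mouse left out. It was 1 when at least 10 counts were required in every mouse, which left out *Stc1*. Over all tested genes, calls numbered 4, 38 with DESeq2, and 4 to 7 with each mouse left out (7 without WTOld replicate 2), and genes with an unadjusted p under 0.05 numbered 663 and 506 to 983. The log2 fold change of *Mybpc2* ranged from −10.46 to −8.52. *Igf1r* turned to 0.013 with limma-voom and 0.011 with the replicate block. With each mouse left out, the log2 fold change ranged across 0 for *Igf1r* (−0.23 to 0.19, higher without WTOld replicate 2 or C2-/-Old replicate 4), *Igf2r* (−0.042 to 0.23, lower without WTOld replicate 1 or 2), *Igfbp5* (−0.17 to 0.53, lower without WTOld replicate 2 or C2-/-Old replicate 4), *Irs2* (−0.74 to 0.18, higher without WTOld replicate 4) and, each higher without WTOld replicate 2, *Eif4ebp1* (−1.31 to 0.22), *Socs2* (−0.65 to 0.50) and *Stc2* (−0.93 to 0.34). Without WTOld replicate 2, *Foxo1*, *Akt1*, *Htra1* and *Stc1* came nearer to 0 (−0.094, −0.070, −0.11 and −1.03) and *Ghr* moved away from it (−0.29). The cause was not tested. Same-numbered mice are different animals, and their deviations correlated with r of 0.36, 0.07, −0.07 and 0.03. With the replicate block, 2 members in place of 3 had an unadjusted p under 0.05, *Igfbp4* no longer, and 0 were called. At 118 to 411 counts of *Igf1* and 0 to 54 of *Igfbp2*, depth limits the latter.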
